A study of Mus musculus with 93 samples.

Results

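The 9 hepatic genes described here move cholesterol out of cells, esterify it or remodel high-density lipoprotein (HDL), and they were followed across 7 inbred mouse strains on 2 diets. The 9 genes were Abca1, Abcg1, Abcg5, Abcg8, Scarb1, Lcat, Soat2, Npc1 and Lipc. They were chosen by name for their roles, with earlier results of these data known, and all 9 were found among the 53465 genes of the count table. Bulk RNA-seq was performed on the livers of 93 male mice. All mice were housed at thermoneutrality (30°C) from 6 weeks of age, received a Western diet (WD, 40% of kcal from fat) or a control diet (CD, 10% of kcal from fat) from 7 weeks of age for 17 weeks, and were killed at 24 weeks. Each strain was inbred, so that all of its mice stood for 1 genetic background, and no group was housed at standard temperature. The wild-derived strains were PWK/PhJ (6 CD and 7 WD mice), CAST/EiJ (7 CD, 8 WD) and WSB/EiJ (6 CD, 6 WD). The classical laboratory strains were 129S1/SvImJ (7 CD, 6 WD), A/J (5 CD, 6 WD), DBA/2J (6 CD, 7 WD) and C57BL/6J (8 CD, 8 WD). The comparisons asked how the WD changed each gene within a strain and whether that change differed between strains.

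Excess cholesterol leaves a cell mainly by ATP-binding cassette (ABC) transporters. ABCA1 and ABCG1 load it onto apolipoprotein A-I and HDL, the ABCG5-ABCG8 heterodimer secretes it from hepatocytes into bile, LCAT esterifies it on HDL in plasma, and SR-BI, encoded by Scarb1, returns HDL cholesterol esters to the liver. Inside the cell NPC1 releases LDL-derived cholesterol from lysosomes and SOAT2 stores it as esters, while hepatic lipase, encoded by Lipc, trims HDL lipids in the liver sinusoids. The 4 ABC transporter genes are known targets of the liver X receptors (LXR), nuclear receptors that sense oxysterols.

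Between 40020424 and 49894856 reads per mouse were assigned to genes (median 46618609), and the 9 genes held 194 to 31229 reads per mouse. Values are given as CPM, read counts scaled to a common library size by TMM, and levels of different genes are compared only as CPM per kb of exon. Differences are log2 fold changes, WD minus CD, from limma-voom over 19110 genes, called at a Benjamini-Hochberg adjusted p below 0.05. Reads of every strain were mapped to the C57BL/6J genome, and the share left unmapped averaged 2.17% in A/J and 12.1% in CAST/EiJ. It moved with diet too, from 3.50% on CD to 7.88% on WD in PWK/PhJ, without overlap, and with overlapping ranges from 4.52% to 7.42% in WSB/EiJ and from 6.45% to 4.77% in DBA/2J. Its part in the differences between strains and diets was not tested. The 10 hepatocyte markers were detected in all 93 livers, with a summed level of 64209 to 208939 CPM. A few libraries stood apart (mice are numbered within a group in the order of the sample records). Mouse 2 of the C57BL/6J CD group had the largest distance from its own group over all genes (SD of the log2 CPM difference 0.982, against a median of 0.430 over the 93 mice), and mouse 5 of the PWK/PhJ CD group had the lowest summed macrophage markers (45.4 CPM, against 187 to 323 in the rest of its group). Mouse 4 of the WSB/EiJ WD group had the lowest summed hepatocyte markers of the 93 mice (64209 CPM) and the highest macrophage (581 CPM) and neutrophil (17.5 CPM) marker sums of its group, and it also had the highest Abcg5, Abcg8 and Scarb1 of any liver. Results whose call rests on one of these mice are given with and without it.

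Across the 63 pairs of a gene and a strain, the WD raised the level in 22, lowered it in 10 and left 31 uncalled. The transporter genes rose, with Abcg1 and Abcg5 up in 6 strains each, Abcg8 in 4 and Abca1 in 3, and none of the 4 fell in any strain. Abcg1 was up in 5 strains without WSB/EiJ WD mouse 4, and Abcg5 in 4 strains when genes of any count were kept in the fit. Scarb1 rose in 2 strains. Lcat fell in 4 strains, Npc1 and Lipc in 2 each, and Soat2 fell in 2 and rose in 1. In whole liver, fewer cells of a type cannot be told apart from less RNA per cell. Mice of a strain came in 2 or 3 cohorts, and all 32 called differences had the same sign in every cohort. For Abcg5 in WSB/EiJ, for example, the differences of mean log2 CPM were 1.70 and 1.75 in its cohorts, and for Abca1 in C57BL/6J they were 0.23 and 0.68. The signs come from the same mice as the calls, and 1 CAST/EiJ cohort held 1 CD mouse. Most uncalled pairs also kept their sign in every cohort, such as Lipc in C57BL/6J (0.018) in 2 of 2 cohorts. The exceptions were Abca1, Soat2 and Npc1 in DBA/2J, Abcg8 in PWK/PhJ, Scarb1 in CAST/EiJ, and Npc1 in C57BL/6J and A/J. A shared sign therefore does little to set the called pairs apart. WSB/EiJ shared no cohort with any other strain. Some other pairs of strains shared none either, such as DBA/2J with C57BL/6J, with PWK/PhJ or with A/J. Strain and cohort cannot be told apart where such strains are compared with each other.

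**Figure D1:**
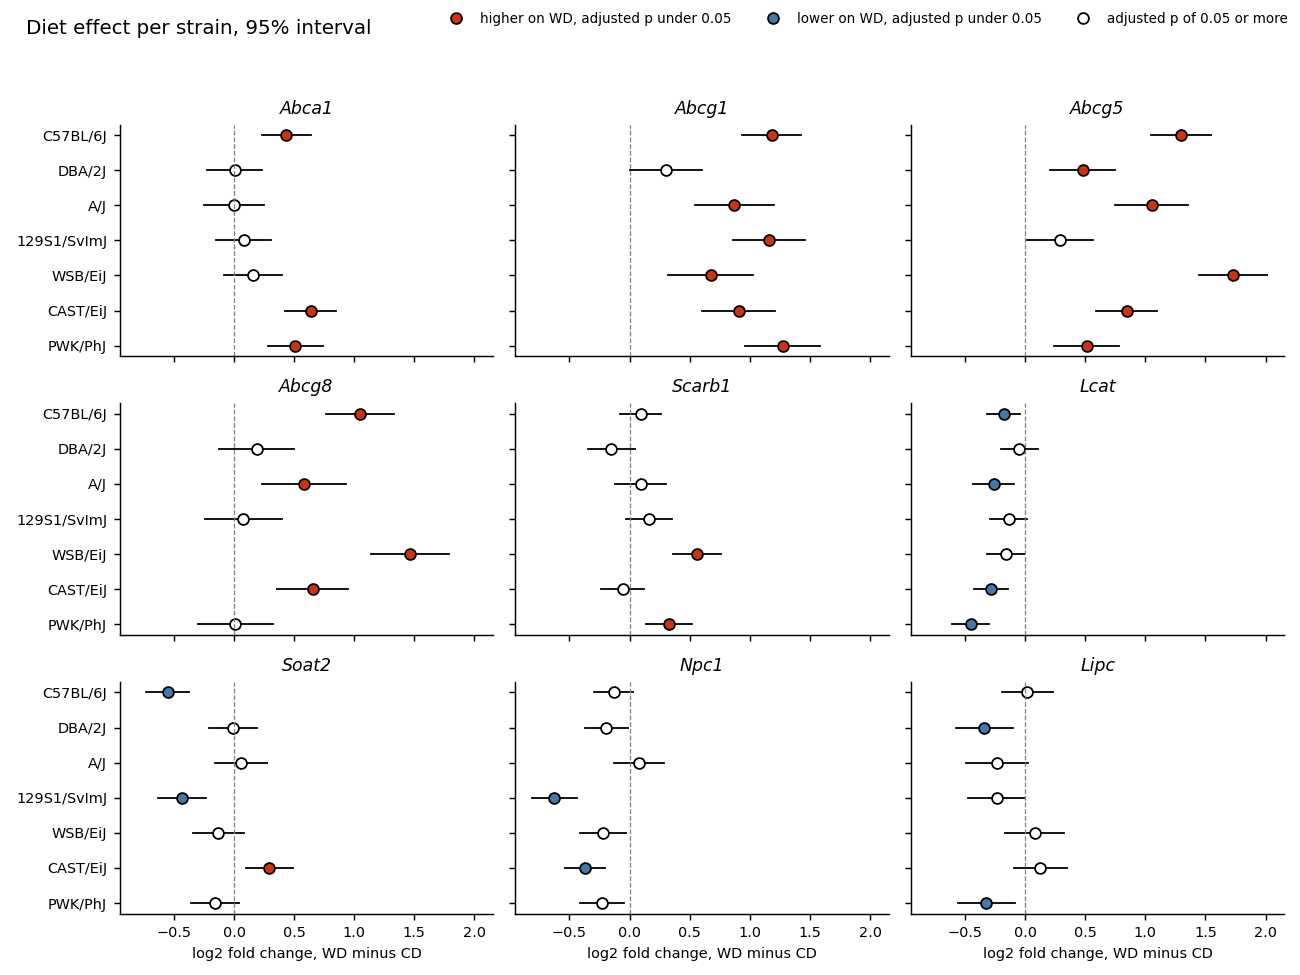
Log2 fold change, WD minus CD, of each of the 9 genes in each of the 7 strains, with its 95% interval; red (higher on WD) and blue (lower on WD) points were called at an adjusted p below 0.05 and open points were not. Abcg1 and Abcg5 sat above 0 in every strain and Lcat below 0 in every strain, while Soat2 had called changes on both sides.

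By strain, the share of the 9 genes called was read against the share of all 19110 genes. Because the 9 were chosen with earlier results of these data known, these shares and those of the tests below only describe the set. In C57BL/6J 4 genes rose (44.4%) and 2 fell (22.2%), where 14.3% of all genes rose and 11.9% fell. DBA/2J livers had 1 up and 1 down (11.1% each), near the shares over all genes of 10.2% and 7.77%. A/J livers had 3 up and 1 down (33.3% and 11.1%), beside 4.39% and 4.64%. In 129S1/SvImJ 1 rose and 2 fell (11.1% and 22.2%), near the 14.5% and 13.6% of all genes. In WSB/EiJ 4 rose and 0 fell (44.4% and 0%), beside 4.97% and 3.97%. CAST/EiJ had the most called, with 5 up and 2 down (55.6% and 22.2%), beside 9.77% and 9.73%. In PWK/PhJ 4 rose and 2 fell (44.4% and 22.2%), beside 15.1% and 14.5%. The median absolute log2 fold change of the 9 genes was highest in C57BL/6J (0.43, against 0.20 over all genes) and lowest in DBA/2J (0.19, against 0.20). The count of 0 down in WSB/EiJ by limma was 0 with edgeR and DESeq2 as well, and at an unadjusted p below 0.05 it was 1, Npc1 (-0.22).

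Whether the diet effect differed among the 7 strains was tested for each gene with limma's F test. All 9 genes passed, where 37.5% of all genes did, with adjusted p between 2.5e-08 for Abcg5 and 0.0411 for Lcat. Lcat and Lipc (0.0355) were the weakest of the 9, and without PWK/PhJ CD mouse 5 both missed the threshold (adjusted p = 0.0743 for Lcat and 0.0511 for Lipc). The levels themselves differed among the strains for all 9 genes on CD and for all 9 on WD, but so did 93.7% and 93.9% of all genes, a background at which a full count is not a result about these genes.

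Abcg5 and Abcg8 encode the paired subunits of the biliary sterol transporter. The genes lie head to head on chromosome 17 in GRCm38, with Abcg5 (ENSMUSG00000040505) at chr17:84658234-84683011 on the minus strand and Abcg8 (ENSMUSG00000024254) at chr17:84676302-84700333 on the plus strand, so that the annotated genes overlap. Abcg8 had 2 RefSeq windows, and the start used here lies 110 bases from that of Abcg5. The stretch between these starts, chr17:84683012-84683120 on the plus strand in GRCm38, is shown because both genes start from it. The capitals mark matches to AGATAA, a hexamer of the kind GATA factors bind, read here on the minus strand.
Between the Abcg5 and Abcg8 starts: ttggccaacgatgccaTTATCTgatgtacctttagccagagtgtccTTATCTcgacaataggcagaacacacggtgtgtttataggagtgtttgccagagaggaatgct
The hexamer was picked after this stretch had been read. On either strand it occurs at least once in 11.2% of the 32851 RefSeq promoter windows of 300 bases. It occurs 3 or more times in 35 of them (0.107%), among which is the window of Abcg5. The 2 Abcg8 windows held 3 matches in total, and the one used here shares most of its bases with the Abcg5 window. A match describes the letters and does not show a bound site.

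Abcg5 rose on WD in 6 of the 7 strains, and most in WSB/EiJ. There it measured 58.4 to 86.9 CPM (median 80.0) in the 6 CD mice and 156 to 419 CPM (median 254) in the 6 WD mice. Every WD mouse lay above every CD mouse, the mean rose 3.47-fold from 77.0 ± 10.2 CPM (SD, n = 6) on CD to 267 ± 95.03 CPM (SD, n = 6) on WD, and the log2 fold change was 1.73 ± 0.14 (SE; adjusted p = 2.05e-16), or 1.59 without WD mouse 4 (419 CPM). In C57BL/6J the range was 53.3 to 108 CPM (median 79.3) in the 8 CD mice and 122 to 250.05 CPM (median 181) in the 8 WD mice. Again the diets did not overlap, with a log2 fold change of 1.30 ± 0.12 (SE; adjusted p = 1.63e-13). A/J had 113, 126, 119, 125 and 102 CPM in the 5 CD mice, and 186 to 297 CPM (median 249) in the 6 WD mice. All 6 WD mice exceeded the CD mice there, with a log2 fold change of 1.05 ± 0.15 (SE; adjusted p = 5.9e-07).

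CAST/EiJ and DBA/2J livers rose less, still without overlap of the diets. In CAST/EiJ Abcg5 spanned 81.3 to 128 CPM (median 91.2) in the 7 CD mice and 150.0 to 199 CPM (median 165) in the 8 WD mice, a log2 fold change of 0.84 ± 0.13 (SE; adjusted p = 4.89e-07). In DBA/2J it spanned 54.6 to 68.4 CPM (median 63.3) in the 6 CD mice and 68.5 to 97.4 CPM (median 86.9) in the 7 WD mice, a log2 fold change of 0.48 ± 0.14 (SE; adjusted p = 0.00699). The DBA/2J mean rose 1.40-fold. PWK/PhJ had the lowest Abcg5 of all strains, 34.8 to 52.6 CPM (median 41.6) in the 6 CD mice and 48.2 to 78.2 CPM (median 61.5) in the 7 WD mice. Of its 7 WD mice 5 exceeded every CD mouse (0.51 ± 0.14 SE, adjusted p = 0.00209). With genes of any count the calls of PWK/PhJ (0.51, adjusted p = 0.0991) and DBA/2J (0.48, adjusted p = 0.104) were lost. In 129S1/SvImJ, whose CD mice were the highest of any strain, the range was 132 to 149 CPM (median 139) in the 7 CD mice and 140.3 to 191 CPM (median 176) in the 6 WD mice. Here 5 of 6 WD mice exceeded the CD mice, but the log2 fold change of 0.29 missed the threshold (adjusted p = 0.112, 95% interval 0.013 to 0.57). It passed with upper-quartile scaling (0.35, adjusted p = 0.0483), with sample quality weights (0.28, adjusted p = 0.0226) and in a separate fit of the strain (0.31, adjusted p = 0.000872).

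Abcg8 rose in 4 strains, and its estimate was below that of Abcg5 in all 7. In WSB/EiJ it measured 77.8 to 109 CPM (median 98.0) in the 6 CD mice and 157 to 427 CPM (median 266) in the 6 WD mice. The diets did not overlap, the mean rose 2.88-fold and the log2 fold change was 1.46 ± 0.16 (SE; adjusted p = 1.1e-10), or 1.33 without WD mouse 4. In C57BL/6J Abcg8 spanned 41.7 to 131 CPM (median 101) in the 8 CD mice and 104 to 266 CPM (median 179) in the 8 WD mice, and 7 of the 8 WD mice exceeded every CD mouse (1.05 ± 0.14 SE, adjusted p = 1.33e-08). CAST/EiJ rose by 0.65 ± 0.15 (SE; adjusted p = 0.000632) and A/J by 0.58 ± 0.18 (SE; adjusted p = 0.0226) on the log2 scale, in both without overlap. The A/J call was lost without WD mouse 2 (0.55), without WD mouse 6 (0.52) or without CD mouse 5 (0.55). No change in Abcg8 was called in DBA/2J (0.19, 95% interval -0.12 to 0.50), 129S1/SvImJ (0.077, -0.24 to 0.40) or PWK/PhJ (0.012, -0.30 to 0.32).

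Against the mean effect of the other 6 strains, the WD effect on this pair stood out in both directions. WSB/EiJ exceeded the others by 0.98 ± 0.15 (adjusted p = 1.76e-05) for Abcg5 and 1.04 ± 0.18 (adjusted p = 0.000137) for Abcg8 on the log2 scale, or by 0.84 and 0.90 without its WD mouse 4, with both calls kept. C57BL/6J exceeded them by 0.48 ± 0.14 (adjusted p = 0.0253) and 0.56 ± 0.16 (adjusted p = 0.0235), the latter lost without its CD mouse 2 (0.42, adjusted p = 0.0671). In 129S1/SvImJ the effect fell short of the others, at -0.70 ± 0.15 (adjusted p = 0.00195) for Abcg5 and -0.58 ± 0.17 (adjusted p = 0.0282) for Abcg8. So it did in PWK/PhJ, at -0.44 ± 0.15 (adjusted p = 0.0294) and -0.66 ± 0.17 (adjusted p = 0.00342), and for Abcg5 in DBA/2J, at -0.47 ± 0.15 (adjusted p = 0.0318). Without PWK/PhJ CD mouse 5 the Abcg5 value of PWK/PhJ was -0.37 and missed the threshold (adjusted p = 0.102). With genes of any count the Abcg5 calls against the other 6 strains were lost in C57BL/6J (adjusted p = 0.0658), DBA/2J (adjusted p = 0.180) and PWK/PhJ (adjusted p = 0.246).

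Since both subunits are needed for the transporter, the ratio of Abcg5 to Abcg8 counts was computed within each liver, where library size cancels. The mean ratio lay between 0.557 (PWK/PhJ) and 0.886 (C57BL/6J) on CD, and between 0.669 (CAST/EiJ) and 1.04 (C57BL/6J) on WD. It was higher on WD in all 7 strains, by 0.19 (CAST/EiJ) to 0.50 (PWK/PhJ) on the log2 scale, with exact two-sided permutation p-values adjusted over the 7 strains of 0.00272 to 0.0361. The diets did not overlap in DBA/2J, A/J, 129S1/SvImJ, WSB/EiJ and PWK/PhJ. In PWK/PhJ the ratio ranged from 0.518 to 0.629 (median 0.552) in CD mice and from 0.732 to 0.878 (median 0.761) in WD mice, an increase of 0.50 (exact permutation, adjusted p = 0.00272), although Abcg8 itself was not called there. Abcg5 thus gained on Abcg8 in each strain. The exons of the genes overlap by 82 bases on opposite strands, 3.02% of the Abcg5 and 2.19% of the Abcg8 exon length, and whether strand was used in the counting is not given in the sources used here.

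**Figure D2:**
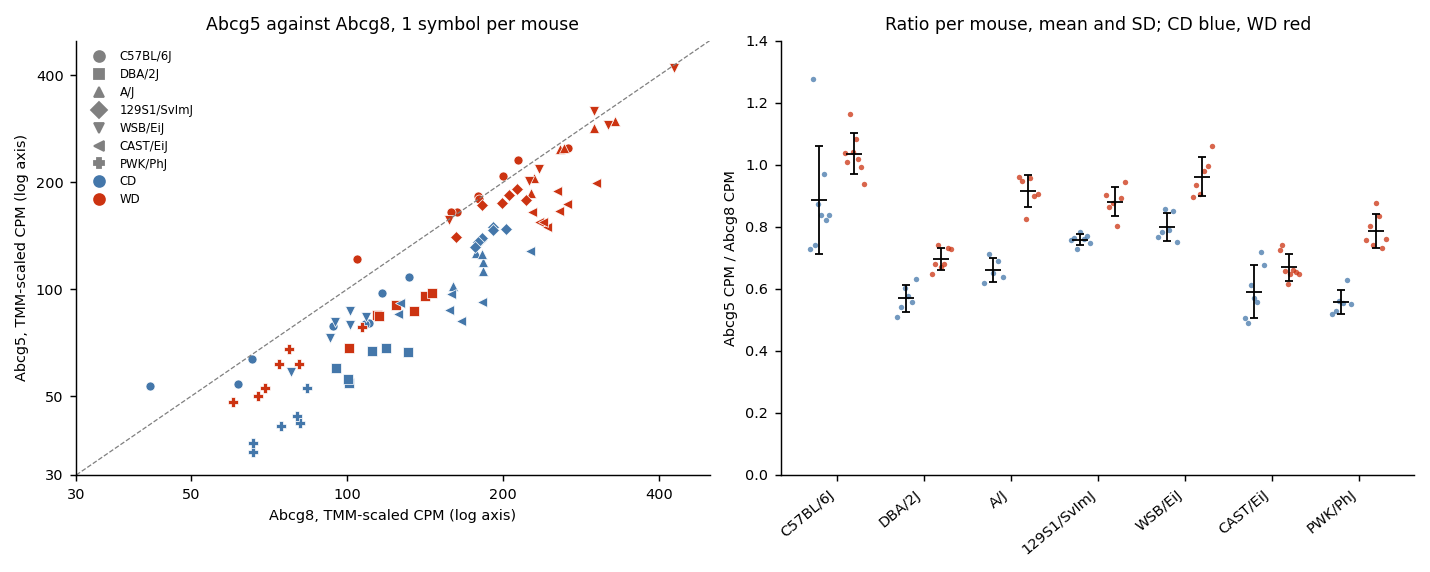
Abcg5 against Abcg8 in each of the 93 livers, in CPM on log axes, with a symbol per strain, blue for CD, red for WD and a dashed line of equal CPM, and on the right the Abcg5 to Abcg8 ratio of each mouse by strain with the mean and SD of each group. The points run from PWK/PhJ and C57BL/6J CD mice at the bottom to WSB/EiJ on WD at the top, and the ratio of every WD mouse lay above that of all CD mice in 5 strains.

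Abca1 (ENSMUSG00000015243, chr4:53030787-53159895 in GRCm38, minus strand) makes nascent HDL from lipid-poor apolipoprotein A-I. The stretch just before its RefSeq start, chr4:53159896-53159972 on the minus strand in GRCm38, is shown because it holds the letters of an LXR-type direct repeat (DR4), whose match is in capitals and runs on the opposite strand.
Abca1 upstream stretch: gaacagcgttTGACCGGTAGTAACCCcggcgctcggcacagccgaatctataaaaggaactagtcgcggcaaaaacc
A DR4, searched on both strands, was found in 111 of the 32851 RefSeq windows (0.338%). RefSeq windows were at hand for 5 of the 9 genes, and those of Abcg5 and Abcg8 held no DR4, which says only that these letters are not in the window.

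Abca1 rose on WD in 3 strains. CAST/EiJ had the clearest separation, with 215 to 274 CPM (median 265) in the 7 CD mice and 321 to 472 CPM (median 372) in the 8 WD mice. All 8 WD mice exceeded the CD mice, a rise of 0.64 ± 0.11 (SE; adjusted p = 6.04e-06) on the log2 scale. In PWK/PhJ the range was 150.3 to 185 CPM (median 176) in the 6 CD mice and 208 to 272 CPM (median 255) in the 7 WD mice, again without overlap (0.51 ± 0.11 SE, adjusted p = 0.000286). In C57BL/6J it was 128 to 224 CPM (median 158) in the 8 CD mice and 174 to 306 CPM (median 221) in the 8 WD mice, where 4 of 8 WD mice exceeded every CD mouse (0.43 ± 0.10 SE, adjusted p = 0.000691). In the other 4 strains the fold change lay between -0.00046 in A/J (95% interval -0.25 to 0.25) and 0.16 in WSB/EiJ (-0.083 to 0.40). Only in CAST/EiJ did the effect exceed the mean of the other 6 strains (0.44 ± 0.12 SE, adjusted p = 0.00618). WSB/EiJ, which had the largest Abcg5 change, thus had no called Abca1 change, and had the highest CD level of Abca1 (288 ± 37.6 CPM, SD, n = 6).

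Abcg1 (ENSMUSG00000024030, chr17:31057675-31117988, plus strand) passes cholesterol to mature HDL and is abundant in macrophages. It was the lowest of the 9 genes per length, with group means of 0.838 to 2.86 CPM per kb against 15.9 to 37.8 for Abca1. It rose on WD in 6 strains. In PWK/PhJ it measured 4.10 to 7.14 CPM (median 6.26) in the 6 CD mice and 12.5 to 16.5 CPM (median 14.5) in the 7 WD mice, with no overlap and a log2 fold change of 1.27 ± 0.16 (SE; adjusted p = 3.99e-10), or 1.16 without CD mouse 5. C57BL/6J livers gave 5.40 to 15.1 CPM (median 9.13) in the 8 CD mice and 17.0 to 27.5 CPM (median 19.9) in the 8 WD mice, again without overlap (1.18 ± 0.12 SE, adjusted p = 3.17e-12). In 129S1/SvImJ the range was 6.18 to 7.22 CPM (median 6.67) in the 7 CD mice and 12.6 to 16.8 CPM (median 15.6) in the 6 WD mice, so that every WD mouse exceeded every CD mouse (1.16 ± 0.15 SE, adjusted p = 7e-09). CAST/EiJ (0.91 ± 0.15 SE, adjusted p = 5.96e-06), A/J (0.87 ± 0.16 SE, adjusted p = 0.000155) and WSB/EiJ (0.68 ± 0.18 SE, adjusted p = 0.00679) rose without overlap too. The WSB/EiJ call rested on WD mouse 4 (17.5 CPM), without which the change was 0.50 and missed the threshold (adjusted p = 0.0624). DBA/2J did not pass (0.30, adjusted p = 0.166, 95% interval 0.0028 to 0.60), and its effect was smaller than the mean of the other 6 (-0.71 ± 0.16 SE, adjusted p = 0.00294).

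Markers of macrophages and Kupffer cells rose beside Abcg1 in some strains, most clearly in 129S1/SvImJ and PWK/PhJ. In A/J, CAST/EiJ and WSB/EiJ, where Abcg1 also rose without overlap, few of them were called. The median log2 fold change of these markers was still above 0 there. Of 12 such markers, none at 0 in all mice and Gpnmb and Trem2 at 0 in some, 9 rose in 129S1/SvImJ, 8 in PWK/PhJ, 7 in C57BL/6J, 3 in WSB/EiJ, 2 in CAST/EiJ, 1 in A/J and 0 in DBA/2J (also 0 at an unadjusted p below 0.05), and none fell in any strain by either measure. In the same order of strains, the share of all genes that rose was 14.5%, 15.1%, 14.3%, 4.97%, 9.77%, 4.39% and 10.2%. The median log2 fold change of the list was 1.09, 1.19, 0.69, 0.58, 0.62, 0.31 and, in DBA/2J, -0.13. Their summed level in PWK/PhJ was 45.4 to 323 CPM on CD and 326 to 465 on WD. In 129S1/SvImJ it was 201 to 341 CPM on CD and 455 to 638 on WD, in both strains without overlap. The diets overlapped in the rest, with summed levels on CD and on WD of 339 to 776 and 605 to 1160.2 in C57BL/6J, 339 to 475 and 317 to 815 in A/J, 178 to 316 and 255 to 402 in CAST/EiJ, 213 to 314 and 180.2 to 581 in WSB/EiJ, and 329 to 539 and 296 to 519.9 in DBA/2J. Itgax and Lyz2, each called in 5 strains, changed by 4.22 and 1.70 in 129S1/SvImJ, against 0.60 and -0.32 in DBA/2J, where neither was called. Neutrophil marker sums were also higher on WD without overlap in PWK/PhJ (2.00 times the CD median) and 129S1/SvImJ (3.36 times), as were stellate cell sums in PWK/PhJ (1.68 times). The part of these cells in the Abcg1 result was not tested.

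**Figure D3:**
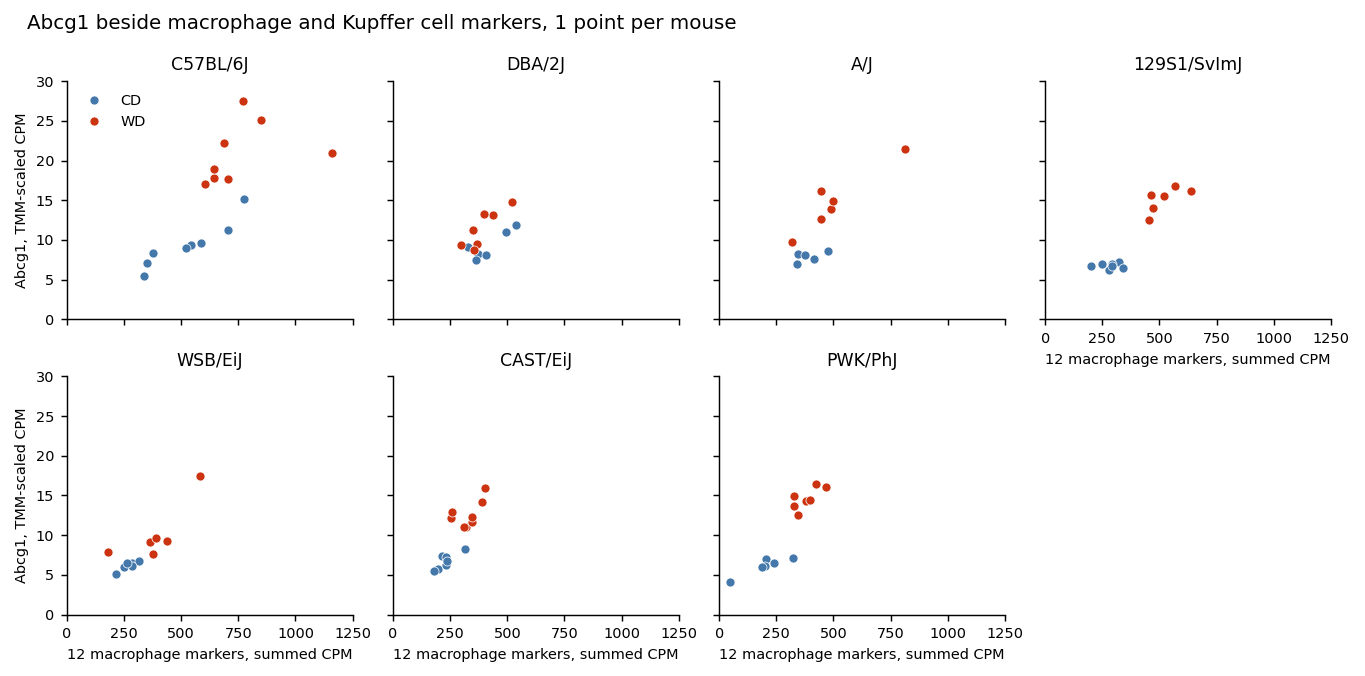
Abcg1 (CPM) against the summed level of 12 macrophage and Kupffer cell markers (CPM) in each of the 93 livers, 1 panel per strain, with CD mice in blue and WD mice in red. PWK/PhJ CD mouse 5 lay apart at 4.10 CPM of Abcg1 and 45.4 CPM of markers, and the C57BL/6J WD mice held the highest Abcg1.

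Scarb1 (ENSMUSG00000037936, chr5:125277087-125341094, minus strand), which encodes the HDL receptor SR-BI, rose in 2 strains. In WSB/EiJ it spanned 219.9 to 326 CPM (median 274) in the 6 CD mice and 341 to 555 CPM (median 391) in the 6 WD mice. The diets did not overlap there (0.56 ± 0.10 SE, adjusted p = 3.47e-05), and the effect exceeded the mean of the other 6 strains by 0.48 ± 0.11 (adjusted p = 0.0104). Without WD mouse 4 these values were 0.47 and 0.39, and both calls were kept. In PWK/PhJ the range was 181 to 251 CPM (median 215) in the 6 CD mice and 248 to 299.7 CPM (median 262) in the 7 WD mice, with 5 of 7 WD mice above every CD mouse (0.33 ± 0.10 SE, adjusted p = 0.00528). In 129S1/SvImJ all 6 WD mice also exceeded the CD mice, yet the change of 0.16 missed the threshold (adjusted p = 0.218, 95% interval -0.032 to 0.36), though it passed in a separate fit of the strain (0.18, adjusted p = 0.00416). DBA/2J had a lower effect than the others (-0.35 ± 0.10 SE, adjusted p = 0.0262) and was itself not called (-0.15, 95% interval -0.34 to 0.041). The remaining 3 strains lay between -0.057 and 0.094.

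Lcat (ENSMUSG00000035237, chr8:105939551-105943382, minus strand), the plasma enzyme that esterifies HDL cholesterol, was the most abundant of the 9 genes per length (272 to 485 CPM per kb over the 14 groups). It fell in 4 strains, by 0.45 (PWK/PhJ), 0.29 (CAST/EiJ), 0.26 (A/J) and 0.18 (C57BL/6J) on the log2 scale. In PWK/PhJ it measured 458 to 585 CPM (median 525) in the 6 CD mice and 333 to 419 CPM (median 389) in the 7 WD mice. Every WD mouse lay below every CD mouse (-0.45 ± 0.078 SE, adjusted p = 2.9e-06), and the effect was lower than the mean of the other 6 strains (-0.27 ± 0.084 SE, adjusted p = 0.0164). In CAST/EiJ the range was 377 to 522 CPM (median 444) in the 7 CD mice and 327 to 395 CPM (median 369) in the 8 WD mice, with 6 of 8 WD mice below every CD mouse (-0.29 ± 0.071 SE, adjusted p = 0.00177). A/J had 636, 656, 678, 642 and 639.6 CPM in the 5 CD mice, and 505 to 609.9 CPM (median 537) in the 6 WD mice. Those diets did not overlap, but the A/J call (adjusted p = 0.0388) held in just 1 of the 11 fits that left out 1 A/J mouse. In the fits that lost it, the log2 fold change lay between -0.27 and -0.23. The C57BL/6J call (adjusted p = 0.0451) was near the threshold and was lost in 6 alternative fits. Lcat was lower on WD in all 7 strains by the point estimate, the smallest being -0.047 in DBA/2J (95% interval -0.20 to 0.11).

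Lipc (ENSMUSG00000032207, chr9:70798128-70952226, minus strand), hepatic lipase, fell in DBA/2J and PWK/PhJ. In DBA/2J it spanned 169 to 223 CPM (median 178) in the 6 CD mice and 133 to 164 CPM (median 142) in the 7 WD mice. Every WD mouse lay below every CD mouse (-0.34 ± 0.12 SE, adjusted p = 0.034). In PWK/PhJ it spanned 154 to 199.6 CPM (median 172) in the 6 CD mice and 106 to 183 CPM (median 140.0) in the 7 WD mice, with 6 of 7 WD mice below the CD mice (-0.33 ± 0.12 SE, adjusted p = 0.0301), but without CD mouse 5 the change was -0.29 and missed the threshold (adjusted p = 0.0859). In A/J all 6 WD mice were below the CD mice as well, without a call (-0.24, adjusted p = 0.266). Lipc was called down in A/J and in 129S1/SvImJ with sample quality weights (-0.23 and -0.22) and in separate fits (-0.23 and -0.22). In C57BL/6J, where CD mouse 2 had 51.4 CPM beside a group median of 131, the estimate turned from 0.018 to -0.13 without that mouse and was called neither way.

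Soat2 (ENSMUSG00000023045, chr15:102150526-102163469, plus strand), the hepatocyte enzyme that stores cholesterol as esters, was the one gene called in both directions. In C57BL/6J it fell from 49.9 to 63.3 CPM (median 53.9) in the 8 CD mice to 30.6 to 41.2 CPM (median 39.4) in the 8 WD mice. Every WD mouse lay below the CD mice (-0.55 ± 0.09 SE, adjusted p = 1.42e-06). In 129S1/SvImJ it fell without overlap as well, with 50.04 to 62.5 CPM (median 53.6) in the 7 CD mice and 38.4 to 43.4 CPM (median 40.8) in the 6 WD mice (-0.43 ± 0.10 SE, adjusted p = 0.000522). CAST/EiJ went the other way, with 21.6 to 41.9 CPM (median 25.7) in the 7 CD mice and 27.0 to 37.9 CPM (median 35.8) in the 8 WD mice (0.29 ± 0.10 SE, adjusted p = 0.023), but no WD mouse lay above CD mouse 4 (41.9 CPM), and the call was lost with genes of any count (0.29) and in a separate fit of the strain (0.29). Against the mean of the other 6 strains the effect was lower in C57BL/6J (-0.49 ± 0.10 SE, adjusted p = 0.00105) and 129S1/SvImJ (-0.35 ± 0.11 SE, adjusted p = 0.0354), and higher in CAST/EiJ (0.50 ± 0.11 SE, adjusted p = 0.000481). With upper-quartile scaling the 129S1/SvImJ call was lost (-0.30, adjusted p = 0.0887). The remaining 4 strains lay between -0.16 and 0.056.

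Npc1 (ENSMUSG00000024413), the lysosomal cholesterol exporter, fell in 129S1/SvImJ and CAST/EiJ. In 129S1/SvImJ it spanned 255 to 305 CPM (median 282) in the 7 CD mice and 164 to 201 CPM (median 188) in the 6 WD mice. The diets did not overlap (-0.63 ± 0.093 SE, adjusted p = 1.64e-07), and the effect was lower than the mean of the other 6 strains (-0.45 ± 0.10 SE, adjusted p = 0.00274). In CAST/EiJ the range was 146 to 174 CPM (median 158) in the 7 CD mice and 109 to 136 CPM (median 123) in the 8 WD mice, also without overlap (-0.37 ± 0.084 SE, adjusted p = 0.000625). PWK/PhJ just missed the threshold (-0.23, adjusted p = 0.0524), with differences of -0.26 and -0.22 in its cohorts. Npc1 was called down there with cohort as a covariate (-0.24, adjusted p = 0.0385), with sample quality weights (-0.25, adjusted p = 0.00728) and in a separate fit (-0.22, adjusted p = 0.0306). In A/J, the strain with the highest Npc1 on either diet, the estimate was 0.078 (95% interval -0.13 to 0.28). Npc1 shares 511 exonic bases, 4.52% of its exon length, with Rmc1 on the opposite strand. Reads there may have been set aside as ambiguous, depending on the use of strand, which is not given in the sources used here.

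Taking the 9 genes against the mean of the other 6 strains, the number with a different diet effect was 3 in C57BL/6J (4.69% of all genes were called), 3 in DBA/2J (7.77%), 0 in A/J (0.466%, or 2 of the 9 at an unadjusted p below 0.05), 4 in 129S1/SvImJ (6.28%), 3 in WSB/EiJ (0.947%), 2 in CAST/EiJ (14.5%) and 3 in PWK/PhJ (16.3%). In WSB/EiJ the 3 called genes were Abcg5, Abcg8 and Scarb1, all with a larger rise than in the other strains. In 129S1/SvImJ the 4 were Abcg5, Abcg8, Soat2 and Npc1, all lower than in the others.

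The strains themselves differed in level on each diet. On CD, Abcg5 ran from 41.9 CPM in PWK/PhJ, through DBA/2J, C57BL/6J, WSB/EiJ, CAST/EiJ and A/J, to 141 in 129S1/SvImJ, a 3.37-fold span. PWK/PhJ was separate from DBA/2J and 129S1/SvImJ from A/J, while the neighbours in between overlapped. On WD the order was PWK/PhJ (60.0), DBA/2J (86.8), CAST/EiJ (169), 129S1/SvImJ (173), C57BL/6J (188), A/J (245) and WSB/EiJ (267), and among neighbours only DBA/2J and CAST/EiJ did not overlap. WSB/EiJ thus moved from the fourth to the seventh place.

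Abcg8 spanned 2.48-fold on CD and 3.62-fold on WD, with PWK/PhJ lowest on both diets, and of its neighbours only 129S1/SvImJ and CAST/EiJ on WD were separate. Abca1 spanned 1.74-fold on CD, from C57BL/6J to WSB/EiJ, and 1.99-fold on WD, from 129S1/SvImJ to CAST/EiJ, and all neighbours overlapped. Abcg1 spanned 1.53-fold on CD with all neighbours overlapping, and on WD C57BL/6J (20.9 ± 3.81 CPM, SD, n = 8) was separate above 129S1/SvImJ. Npc1 was lowest in CAST/EiJ and highest in A/J on both diets, a 2.00-fold span on CD and 2.73-fold on WD, where A/J (337 CPM) was separate from WSB/EiJ (234) and WSB/EiJ from 129S1/SvImJ. Scarb1 ran from C57BL/6J up to A/J on CD and up to WSB/EiJ on WD (1.57-fold and 1.84-fold). Lcat, highest in A/J on both diets, spanned 1.58-fold and 1.49-fold, Lipc, lowest in C57BL/6J and highest in CAST/EiJ, 1.69-fold and 1.89-fold. Soat2 narrowed from 2.00-fold on CD to 1.42-fold on WD: its highest CD strains, C57BL/6J and 129S1/SvImJ, fell and its lowest, CAST/EiJ, rose.

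**Figure D4:**
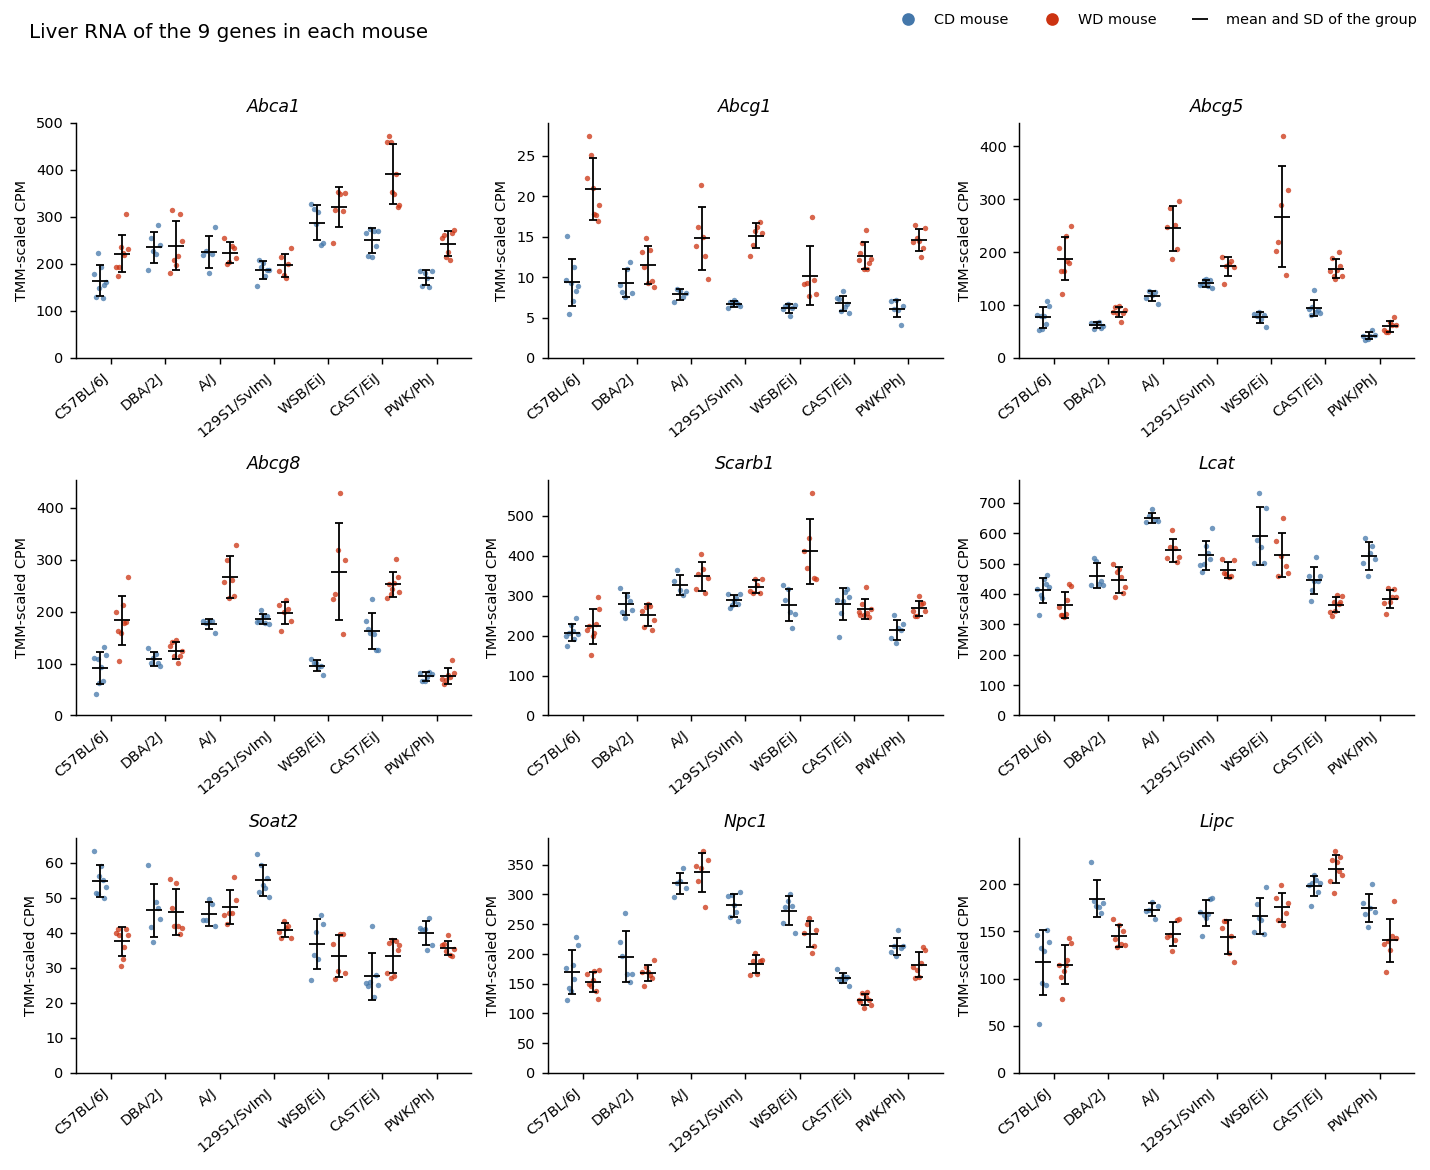
Level (TMM-scaled CPM) of each of the 9 genes in every one of the 93 livers, by strain and diet, with the mean and SD of each group in black, CD in blue and WD in red. WSB/EiJ shows the widest gap between the diets for Abcg5 and Abcg8, and the diets overlap in DBA/2J for all genes but Abcg5 and Lipc.

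Like patterns were sought over the 14 group means and, after each group mean was subtracted, over the 93 mice. That step leaves differences between libraries and between cohorts within a group, and their part in r was not tested. Abcg5 and Abcg8 were each other's closest gene among 11149 expressed genes by both measures (r = 0.94 over 14 group means and 0.91 over 93 mice). For Abcg1 the closest over group means were Myof (0.92), Capg (0.92), AB124611 (0.92), and over mice Cyth4 (0.80), Evl (0.78), Arhgdib (0.77). For Abca1 they were Fam126b (0.88), Usp33 (0.87), Ninj1 (0.85) over group means. For Scarb1 they were Sh2b3 (0.83), Glrx (0.82), Gabarapl1 (0.82), for Lcat Rnf128 (0.94), Ddrgk1 (0.94), Smoc1 (0.92), for Soat2 Hmg20b (0.89), Elmo3 (0.88), 2610002M06Rik (0.88), for Npc1 Zfp317 (0.94), Zfp446 (0.92), Smoc1 (0.91) and for Lipc F7 (0.92), Tada2b (0.91), Tmprss6 (0.91). Over mice they were Zfp445 (0.75), Zyg11a (0.74), Larp4 (0.73) for Abca1, Plbd2 (0.77), Rab11b (0.66), Grhpr (0.61) for Scarb1, Tfr2 (0.63), Ifnar2 (0.63), Desi1 (0.62) for Lcat, Gm36041 (0.59), Stat5b (0.58), Mthfsl (0.57) for Soat2, Gys2 (0.74), Lrp4 (0.68), Pdxk (0.68) for Npc1 and Il1rap (0.87), Sult2a8 (0.85), Cyp27a1 (0.85) for Lipc. Among the 9 genes, the next pairs were Lcat with Npc1 over group means (r = 0.89, n = 14) and Abcg8 with Lipc over mice (r = 0.64, n = 93), while Abcg1 and Lipc ran opposite ways over mice (r = -0.53).

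Other genes of these pathways gave the setting. Over all 19110 genes, the share that rose ran from 4.39% (A/J) to 15.1% (PWK/PhJ), and the share that fell from 3.97% (WSB/EiJ) to 14.5% (PWK/PhJ). List counts near these shares are not a result about the list. Of 14 LXR receptors and other LXR targets, 6 rose in C57BL/6J, 5 in CAST/EiJ and PWK/PhJ, 4 in DBA/2J, 3 in A/J and 129S1/SvImJ and 1 in WSB/EiJ, while between 0 and 3 fell (0 in A/J and in WSB/EiJ, each with 1 at an unadjusted p below 0.05). Srebf1, which drives fatty acid synthesis, rose in 5 strains (up to 1.18 in C57BL/6J) and fell in 129S1/SvImJ (-0.69), Scd1 rose in 5 and Arl4c in 4. Of 8 SREBP2 targets, which fall when the endoplasmic reticulum is rich in sterol, 0 rose in any strain by limma (also 0 at an unadjusted p below 0.05), 8 fell in C57BL/6J, 129S1/SvImJ, WSB/EiJ, CAST/EiJ and PWK/PhJ, 6 in A/J and 5 in DBA/2J, with median log2 fold changes from -1.66 in C57BL/6J to -0.62 in DBA/2J, where the median over all genes lay between -0.011 and 0.017 in the 7 strains.

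Of 11 HDL proteins and remodelling factors, between 1 and 3 rose in a strain and between 2 and 7 fell, the most in PWK/PhJ (1 up, 7 down). Apom, an HDL apolipoprotein, fell in all 7 strains (-0.54 to -1.56 on the log2 scale), Apoa1 fell in 6 and Apoe rose in 5. Of 6 genes of cholesterol ester formation and hydrolysis, 4 rose in 129S1/SvImJ, 2 in PWK/PhJ, 1 in C57BL/6J and DBA/2J and 0 elsewhere (also 0 at an unadjusted p below 0.05), and 1 fell in CAST/EiJ and in PWK/PhJ. Soat1, the other acyltransferase, rose in 3 strains, as did Ces1g. Of 15 genes of intracellular sterol transport, between 0 and 5 rose and between 0 and 3 fell (0 up in CAST/EiJ, with 3 at an unadjusted p below 0.05, and 0 down in DBA/2J, with 2), with Gramd1b up in 6 strains, Stard4 down in 6 and Lamp1 up in 5. Some of these counts lay near the shares over all genes, such as 2 up and 2 down in 129S1/SvImJ, beside 14.5% and 13.6%. Of 13 other ABC lipid transporters 12 were tested and Abcg4 was too low. Between 1 and 4 rose and between 1 and 4 fell, with Abcg2 up in all 7 strains (0.51 to 1.248), Abca8a down in 6, and Abca2 up in 2 and down in 2. The summed level of the 10 hepatocyte markers was lower on WD without overlap in C57BL/6J, A/J, WSB/EiJ, CAST/EiJ and PWK/PhJ, at 0.615 (PWK/PhJ) to 0.694 (A/J) of the CD median, and that of 6 cholangiocyte markers was higher without overlap in PWK/PhJ, CAST/EiJ, 129S1/SvImJ and WSB/EiJ, at 1.19 to 3.40 times the CD median. A sum is weighted to its most abundant markers. Taken singly, between 2 (WSB/EiJ) and 5 (A/J) of the 10 hepatocyte markers fell where the sum fell without overlap. Their median log2 fold change there ran from -0.017 (WSB/EiJ) to -0.34 (A/J), and PWK/PhJ and C57BL/6J each had 1 called up. Of 6 cholangiocyte markers, PWK/PhJ had 5 up, 129S1/SvImJ and CAST/EiJ 1 each and WSB/EiJ 0 (also 0 at an unadjusted p below 0.05). Endothelial and lymphocyte sums overlapped between the diets in every strain, but single markers were called. Of 8 lymphocyte markers, 4 rose in 129S1/SvImJ and 1 each in C57BL/6J, WSB/EiJ and CAST/EiJ. The median lymphocyte sum in WSB/EiJ was 2.55 times that on CD. Of 8 endothelial markers, 3 fell in DBA/2J and 1 each in WSB/EiJ and CAST/EiJ, while 2 rose in 129S1/SvImJ. In C57BL/6J 2 endothelial markers rose and 2 fell, and in PWK/PhJ 1 rose and 1 fell. The part of these cells in the results for the 9 genes was not tested.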

How the data were processed

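Liver RNA from 93 male mice was sequenced, and the authors deposited raw counts per gene, made with STAR 2.7.1a per the submitters' processing notes on GRCm38 (mm10). The annotation release and the use of strand are not given in the sources used here. A run of 4 summary lines held reads without a gene (on average 5.73% unmapped, 10.1% multimapping, 4.62% without a feature and 4.80% ambiguous) and was left out of library sizes. Gene positions came from GENCODE on GRCm38 and sequences from RefSeq tables. Groups came from the strain and diet labels.

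Counts were TMM-scaled, filtered with filterByExpr (minimum count 10, leaving 19110 genes) and fitted by limma-voom with 1 mean per group over all 93 mice (R 4.3.3, limma 3.58.1, edgeR 4.0.16). Contrasts were WD minus CD within a strain, each such effect against the mean of the other 6, and F tests over strains. P-values were Benjamini-Hochberg adjusted over all genes of a contrast, with a threshold of 0.05. The Abcg5 to Abcg8 ratio was tested by exact two-sided permutation. Log2 CPM used a prior count of 2. P-values measure the spread between these mice. DESeq2 1.42.0, edgeR's quasi-likelihood test, other scalings, filters, covariates, weights and left-out mice were alternatives.

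The 9 genes and all gene lists were chosen with earlier results of these data known. For each gene the 3 most alike by Pearson r were named, and of each list at most 3 genes called in most strains, with ties broken by the size of the change and a gene left unnamed where many tied. On simulated counts for A/J, fitted over 18220 genes, the test called 56% of 50 genes changed 1.25-fold, 80% at 1.5-fold, 94% at 2-fold and 92% at 3-fold, and 8 unchanged genes.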

Additional observations from a re-analysis of the deposited data

Results flagged for a closer look

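Of the 126 combinations of a gene and a group, 11 held a mouse set apart from the rest of its group by Dixon's test. Chance flags about 1 in 20 groups. The low mice were WSB/EiJ WD mouse 1 for Abca1 (244 CPM), PWK/PhJ CD mouse 5 for Abcg1 (4.10), 129S1/SvImJ WD mouse 2 for Abcg5 (140.3), DBA/2J WD mouse 5 for Abcg5 (68.5), A/J CD mouse 5 for Abcg8 (159.8) and C57BL/6J CD mouse 2 for Lipc (51.4). The high mice were WSB/EiJ WD mouse 4 for Abcg1 (17.5 CPM), CAST/EiJ CD mouse 4 for Abcg5 (128) and Soat2 (41.9), CAST/EiJ WD mouse 5 for Scarb1 (321) and DBA/2J CD mouse 1 for Lipc (223).

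The diet effect differed among the 7 strains by limma's F test for all 9 genes, beside 37.5% of all genes, with adjusted p of 0.000975 for Abca1, 0.000819 for Abcg1, 2.5e-08 for Abcg5, 2.73e-07 for Abcg8, 0.000419 for Scarb1, 0.0411 for Lcat, 7.63e-06 for Soat2, 0.00112 for Npc1 and 0.0355 for Lipc.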

How the results depend on the processing

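No paired analysis was possible because the labels give the mice no replicate numbers that are shared between the diets. Recomputed under the alternatives, 179 of 217 counts of genes kept their value and all 28 tests of the Abcg5 to Abcg8 ratio kept their call. The number of genes down in C57BL/6J went from 2 to 1 with edgeR, DESeq2, genes of any count, cohort or RNA integrity as a covariate, and a separate fit per strain, each time by losing Lcat. The number up in DBA/2J went from 1 to 0 with genes of any count. The number down in A/J (1) was 0 with upper-quartile scaling, 2 with quality weights or a separate fit, and 0 to 1 over fits without 1 A/J mouse. The number up in 129S1/SvImJ (1) was 2 with upper-quartile scaling or quality weights and 3 with a separate fit, and the number down there (2) was 3 with weights or a separate fit. The number down in PWK/PhJ (2) was 3 with cohort, weights or a separate fit, by gaining Npc1, and 1 without CD mouse 5. The number up was 4 and not 5 in CAST/EiJ with genes of any count or a separate fit, 3 and not 4 in PWK/PhJ with genes of any count, 2 and not 3 in A/J in 3 of the fits without 1 mouse, and 3 and not 4 in WSB/EiJ without WD mouse 4. Leaving out C57BL/6J CD mouse 2, PWK/PhJ CD mouse 5 or WSB/EiJ WD mouse 4 was chosen after the data were seen. With genes of any count the F test passed 7 of the 9 genes, missing Lcat (adjusted p = 0.0664) and Lipc (0.0538).

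Estimates that changed sign were all uncalled. Abca1 in DBA/2J was -0.010 with RNA integrity. Abca1 in A/J was 0.0019 with DESeq2, 0.028 with upper-quartile scaling, 0.016 with 10 counts in every mouse, 0.033 with quality weights, 0.0078 in a separate fit and -0.068 to 0.086 over the fits without 1 A/J mouse. Abcg8 in PWK/PhJ was -0.0078 with cohort and -0.026 with quality weights. Soat2 in DBA/2J was 0.0026 with upper-quartile scaling and 0.0074 with RNA integrity. Lipc in C57BL/6J was -0.030 with edgeR, -0.017 with DESeq2, -0.10 with quality weights and -0.13 without CD mouse 2. The cause of these changes was not tested. Of 828 values for single genes, 32 lost and 11 gained a call.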
